A study of Homo sapiens with 12 samples.

Results

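The 27 genes described here make, move and regulate cholesterol. They were taken by name: 19 enzymes that carry acetyl-CoA to cholesterol or its isoprenoid branch (ACAT2, HMGCS1, MVK, PMVK, MVD, IDI1, FDPS, GGPS1, FDFT1, SQLE, LSS, CYP51A1, TM7SF2, MSMO1, NSDHL, HSD17B7, EBP, SC5D and DHCR7), 4 genes of the SREBP switch (INSIG1, INSIG2, SCAP and SREBF2), the sterol carrier STARD4, and 3 genes of the LXR arm (MYLIP, NR1H2 and NR1H3). They are 27 of 57133 gene names in the count files and of 14504 genes with enough counts to test. Each of the 27 passed the filter on low counts, but FDFT1 did so near background, and its mean stayed under 1 CPM (a gene's counts scaled to the total of its library) in mVenus, while the means of the other 26 exceeded 1 CPM in every group.

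Cholesterol is built from acetyl-CoA through mevalonate, farnesyl diphosphate, squalene and lanosterol. Farnesyl diphosphate also feeds protein prenylation, dolichol and ubiquinone. The transcription factor SREBP2, the product of SREBF2, is made as a precursor in the endoplasmic reticulum. When sterols are low, SCAP escorts it to the Golgi, where it is cut, and the freed part raises transcription of nearly the whole pathway. When sterols are plentiful, INSIG proteins hold SCAP back. LXR receptors sense oxysterols and act in the opposite sense, through export pumps and through MYLIP, a ubiquitin ligase that marks the low-density lipoprotein receptor for breakdown. The kinase complex mTORC1 is known in other cells as a promoter of SREBP activity.

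Messenger RNA was read from MCF10-A, a human breast epithelial cell line that is established and does not form tumours. The line carried a transgene under a doxycycline-inducible promoter that encoded the fluorescent protein mVenus alone, mVenus-p16 or mVenus-p21, and p16 and p21 are inhibitors of the kinases that drive the cell cycle. There were 4 groups of 3 libraries, each group 3 biological replicates per the series' design text: mVenus, p16, p16 with Torin2 and p21. Every group received 50 ng/ml doxycycline, grew in medium with horse serum, EGF, insulin, hydrocortisone and cholera toxin, and was harvested after 5 days. The p16 group had DMSO, the solvent, and the p16 with Torin2 group had 100 nM Torin2, an inhibitor of mTOR, added 24 hours after doxycycline. The same treatment start is given for mVenus and p21, and whether they also had DMSO is not stated here. Each transgene was thus carried by separate cells, and every group had doxycycline. An effect of a transgene therefore cannot be told apart from a difference between the lines that carried them. The labels do not say whether a line was 1 clone or a pool, and p-values measure the spread between these cultures. As the RNA is from whole wells, fewer expressing cells and less RNA per cell cannot be told apart in any result that follows.

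Libraries held 13168749 to 18321114 counts. CDKN2A, the gene of p16, had 0 counts in the 12 libraries, which allows up to 0.0631 CPM over the p16 libraries. Where reads of the transgenes were counted was not tested, so induction of p16 cannot be read from these counts. CDKN1A, the gene of p21, ran from 729 to 753 CPM in mVenus, 517 to 569.9 in p16, 241 to 272 under Torin2 and 869 to 891 in p21. Basal breast markers were present (9 of 9 reached 1 CPM), as were 6 of 8 luminal ones. Of 4 adipocyte markers 0 reached 1 CPM, of 6 endothelial markers 2 did, of 8 leukocyte markers 3 (CD14, ITGAX and CSF1R, with CD3E and TYROBP at 0) and of 8 fibroblast markers 2 (COL1A1 and DCN). The luminal list summed to 1563 to 1695 CPM in mVenus, 2998 to 3199 in p16, 980.3 to 1052 under Torin2 and 1948 to 2159 in p21, and of its 6 tested genes 6 rose in p16, 4 rose and 1 fell in p21, and 6 fell under Torin2 over p16. The basal list summed to 10140.0 to 10430.0, 13060.0 to 13650.0, 9484 to 9795 and 8603 to 8728 in the same order. Of its 9 tested genes 5 rose and 3 fell in p16, 3 rose and 3 fell in p21, and 5 rose and 4 fell under Torin2. Among all genes tested, 30.9% rose and 32.8% fell in p16, 28.2% and 28.3% in p21, and 30.3% and 29.0% under Torin2. The endothelial list stayed between 1.76 and 4.73 CPM and the adipocyte list under 1. The fibroblast list summed to 21.03 to 21.51 CPM in mVenus, 6.74 to 7.23 in p16, 5.61 to 5.86 under Torin2 and 109.6 to 117 in p21, mostly DCN, and the leukocyte list to 56.8 to 60.7, 110.5 to 123, 51.6 to 55.5 and 107 to 110.5. A list of 8 proliferation genes summed to 1013 to 1092 CPM in mVenus, 96.6 to 102 in p16, 221 to 229 under Torin2 and 84.3 to 89.2 in p21, and mitochondrially encoded genes took 3.85 to 3.91%, 6.33 to 6.91%, 5.66 to 6.71% and 6.08 to 6.98% of counts in the same order. The part of these shifts in the results was not tested. Fold changes are from edgeR with TMM scaling, under which a gene at equal CPM gets a log2 fold change of 0.11 in p16 against mVenus, 0.07 in p21 or p16 with Torin2 against mVenus, and -0.04 in both comparisons with p16. Unless another group is named, p16 and p21 are set against mVenus, and Torin2 against p16.

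Promoter windows, 300 bases from 250 before to 50 after the start site, were taken from RefSeq (GRCh38.p14) and matched 24 of the 27 genes. ACAT2, FDFT1 and SQLE had no entry. Both strands were searched for 3 motifs known at sterol genes. CCAAT, the box of the factor NF-Y, was in 16 of the 24 windows (66.7%) against 35.7% of 27305 promoter windows. GGGCGG, the box of the factor Sp1, was in 21 (87.5%) against 44.6%. TCACNCCAC, a strict core of the sterol regulatory element that SREBP binds, was in 1 window, that of SREBF2, against 1.15% of promoter windows. The motifs shared 0 bases in these 24 windows. A match describes letters, not a bound site, and a window without one says nothing of the factor. The 250 bases before the start are printed 5′ to 3′ for DHCR7, MVD, INSIG1 and HMGCS1, which were among the genes that fell most under Torin2, with CCAAT on either strand (CCAAT or ATTGG) in capitals, and for SREBF2, chosen after its values were seen, with TCACNCCAC in capitals. They lie at chr11:71448394-71448643, minus strand, chr16:88663092-88663341, minus strand, chr7:155297628-155297877, plus strand, chr5:43313413-43313662, minus strand, and chr22:41832855-41833104, plus strand.
DHCR7: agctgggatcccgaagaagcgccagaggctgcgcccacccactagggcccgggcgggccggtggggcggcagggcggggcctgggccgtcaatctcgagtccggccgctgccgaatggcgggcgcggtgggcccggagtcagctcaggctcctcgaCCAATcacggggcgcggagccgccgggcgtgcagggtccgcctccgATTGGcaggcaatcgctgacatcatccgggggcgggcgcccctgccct
MVD: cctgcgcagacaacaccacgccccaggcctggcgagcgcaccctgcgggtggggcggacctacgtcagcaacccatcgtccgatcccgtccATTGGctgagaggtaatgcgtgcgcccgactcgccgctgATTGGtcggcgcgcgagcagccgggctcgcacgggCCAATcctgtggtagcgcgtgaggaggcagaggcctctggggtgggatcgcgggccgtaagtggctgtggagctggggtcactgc
INSIG1: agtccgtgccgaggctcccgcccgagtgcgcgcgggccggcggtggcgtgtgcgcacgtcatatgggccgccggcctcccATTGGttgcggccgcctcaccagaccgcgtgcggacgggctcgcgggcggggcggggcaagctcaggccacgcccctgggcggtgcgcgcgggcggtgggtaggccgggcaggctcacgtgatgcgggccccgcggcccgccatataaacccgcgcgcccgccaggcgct
HMGCS1: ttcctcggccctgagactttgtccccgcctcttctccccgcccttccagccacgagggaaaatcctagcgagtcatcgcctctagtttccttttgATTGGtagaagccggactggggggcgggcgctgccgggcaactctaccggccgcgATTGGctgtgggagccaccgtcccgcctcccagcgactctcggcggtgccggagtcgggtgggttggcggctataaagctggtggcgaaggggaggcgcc
SREBF2: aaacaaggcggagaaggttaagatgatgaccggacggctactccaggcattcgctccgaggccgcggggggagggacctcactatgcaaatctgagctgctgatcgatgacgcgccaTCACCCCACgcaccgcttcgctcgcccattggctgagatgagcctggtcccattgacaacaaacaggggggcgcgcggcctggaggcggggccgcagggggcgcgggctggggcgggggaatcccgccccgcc
In the DHCR7 window, CCAAT began 94 and 48 bases before the start, in MVD 159, 120 and 85, in INSIG1 170, and in HMGCS1 155 and 100. The element of SREBF2 began 133 bases before its start.

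The summed level of the 19 enzymes set the groups apart. It was 1866, 1837 and 1810.0 CPM in mVenus, 1471, 1529 and 1557 in p16, 550.5, 532 and 527 in p16 with Torin2, and 749.5, 723 and 726 in p21. No library of one group reached into another. The p16 mean was 82.7% of the mVenus mean, the p21 mean 39.9% of it and 48.2% of the p16 mean, and the Torin2 mean 35.3% of the p16 mean and 29.2% of the mVenus mean. Each stage sum was lower in p21 and under Torin2 than in p16, and lower in p16 than in mVenus. Within the p16 sums the enzymes were mixed. Of the 19, 8 fell and 5 rose in p16 (42.1% and 26.3%, against 32.8% and 30.9% of genes tested). The stage medians of log2 fold change in p16 were -0.41, -0.08, -0.05 and -0.05 in pathway order. The steps from lanosterol to cholesterol summed to 758 ± 5.67 CPM in mVenus, 635 ± 34.2 in p16, 221 ± 5.10 under Torin2 and 355 ± 7.81 in p21 (mean ± SD, n = 3). The steps from mevalonate to the prenyl diphosphates summed to 623 to 648.5, 507 to 515, 195 to 203 and 237 to 241 over the libraries, in the same order, and squalene and lanosterol formation to 261 ± 5.52, 232 ± 7.93, 85.1 ± 6.06 and 94.3 ± 5.59. Of the 27 genes, 17 had their highest mean CPM in mVenus and 22 their lowest in p16 with Torin2. These ranks and sums are of CPM before TMM scaling, and the ranks were not counted over all genes. The scaling raises p16 over mVenus by 0.11 on the log2 scale. The p16 sums therefore lie further below mVenus than scaled values would. Some ranks were close: mVenus and p16 means were 106.4 and 106.3 CPM for HMGCS1 and 320.0 and 318.3 for MSMO1.

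**Figure D1:**
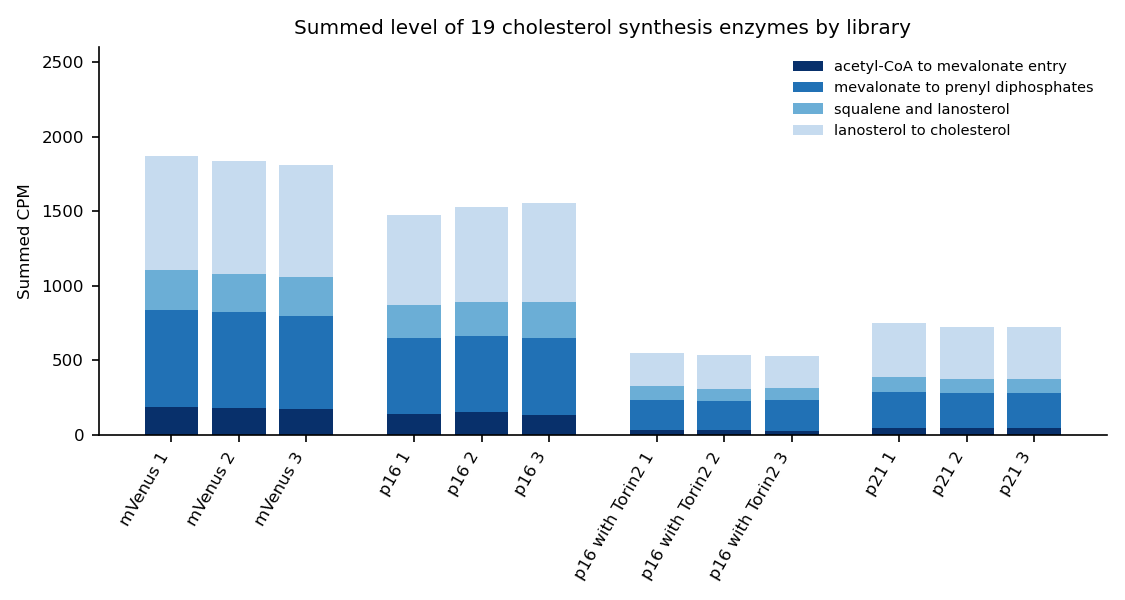
Summed CPM of the 19 cholesterol synthesis enzymes in each of the 12 libraries, stacked by stage of the pathway. The mVenus bars reach 1810.0 to 1866 CPM, p16 1471 to 1557, p21 723 to 749.5 and p16 with Torin2 527 to 550.5, and each stage is lower in p21 and under Torin2 than in p16.

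The first comparison asks what p16 induction did relative to the fluorescent protein alone. The set did not move one way, and the changes were under 2-fold except in INSIG1 and in the poorly counted FDFT1. The sensor gene INSIG1 fell 2.77-fold, and ACAT2, DHCR7, EBP, PMVK, LSS, CYP51A1, FDPS, STARD4, TM7SF2 and NR1H3 fell by less than 2-fold. HMGCS1, SQLE and SREBF2, the synthase, the epoxidase and the master factor, did not pass the test. In all 6 of the 27 genes rose and 11 fell, where 30.9% of the 14504 genes tested rose and 32.8% fell. Those that rose were GGPS1, FDFT1, NSDHL, HSD17B7, SC5D and MYLIP. INSIG1 was the 1 gene that fell 2-fold or more, as did 9.35% of genes tested. The median log2 fold change was -0.04 over the 27 genes and -0.00 over those tested, so the shares and the median lay near those of the genes tested. The count of 6 fell to 2 without mVenus replicate 1 and to 3 without mVenus replicate 2.

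The second comparison asks the same of p21. Here the pathway fell nearly as a whole. A total of 20 of the 27 genes fell and 3 rose, where 28.3% of the genes tested fell and 28.2% rose, and the median log2 fold change was -0.85 against -0.00 over the genes tested. Among the 19 enzymes 17 fell and 0 rose, the exceptions being GGPS1 and FDFT1, with a median of -1.03. A fall of 2-fold or more was seen for 11 of the 27 (ACAT2, HMGCS1, MVK, MVD, IDI1, FDPS, SQLE, MSMO1, EBP, DHCR7 and INSIG1), where 6.49% of genes tested fell that far. SCAP, MYLIP and NR1H2 rose, each by less than 2-fold.

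The p21 group was also tested directly against the p16 group. Levels of 20 of the 27 genes were lower in p21 and 3 higher (PMVK, SCAP and NR1H2), against 27.2% of genes tested in each direction, with a median log2 fold change of -0.69 against -0.01. A difference of 2-fold or more downward was found for 10, as for 5.12% of genes tested. The p16 and p21 comparisons share the mVenus libraries, so they are set side by side and not correlated. HMGCS1, MVK, MVD, IDI1, SQLE, MSMO1, NSDHL, HSD17B7, SC5D and SREBF2, 10 of the 27, fell in p21, did not pass as lower in p16, and were lower in p21 than in p16. IDI1 came near the threshold in p16 (adjusted p = 0.0506) and passed as lower with upper quartile scaling (0.0367). Among them NSDHL, HSD17B7 and SC5D rose in p16. ACAT2, FDPS, CYP51A1, TM7SF2, EBP, DHCR7, INSIG1 and STARD4, 8 of the 27, fell in both and were lower in p21 than in p16. PMVK went the other way, with a deeper fall in p16. These joint patterns were not counted over all genes tested, so the 10 and the 8 have no background share and only describe the set.

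The fourth comparison asks what the mTOR inhibitor did in p16 cells. Torin2 lowered nearly the whole set. With the drug 22 of the 27 genes fell and 3 rose (PMVK, INSIG2 and NR1H3), where 29.0% of genes tested fell and 30.3% rose, and the median log2 fold change was -1.11 against 0.02. Of the 19 enzymes 17 fell, with a median of -1.37. A fall of 2-fold or more was seen for 16 of the 27, against 6.44% of the genes tested, and reached below -2 on the log2 scale for DHCR7, MVD, ACAT2, INSIG1, HMGCS1, STARD4 and TM7SF2. The count of 3 that rose fell to 1 without p16 replicate 2. Set against mVenus, p16 with Torin2 had 21 of the 27 genes lower and 2 higher (INSIG2 and NR1H3), where 36.1% of genes tested were lower and 31.2% higher, with a median of -1.36 against -0.03, and 14 were 2-fold or more lower against 9.9%. Of the 8 proliferation genes 8 fell in p16 and in p21, and 7 rose under Torin2 over p16.

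**Figure D2:**
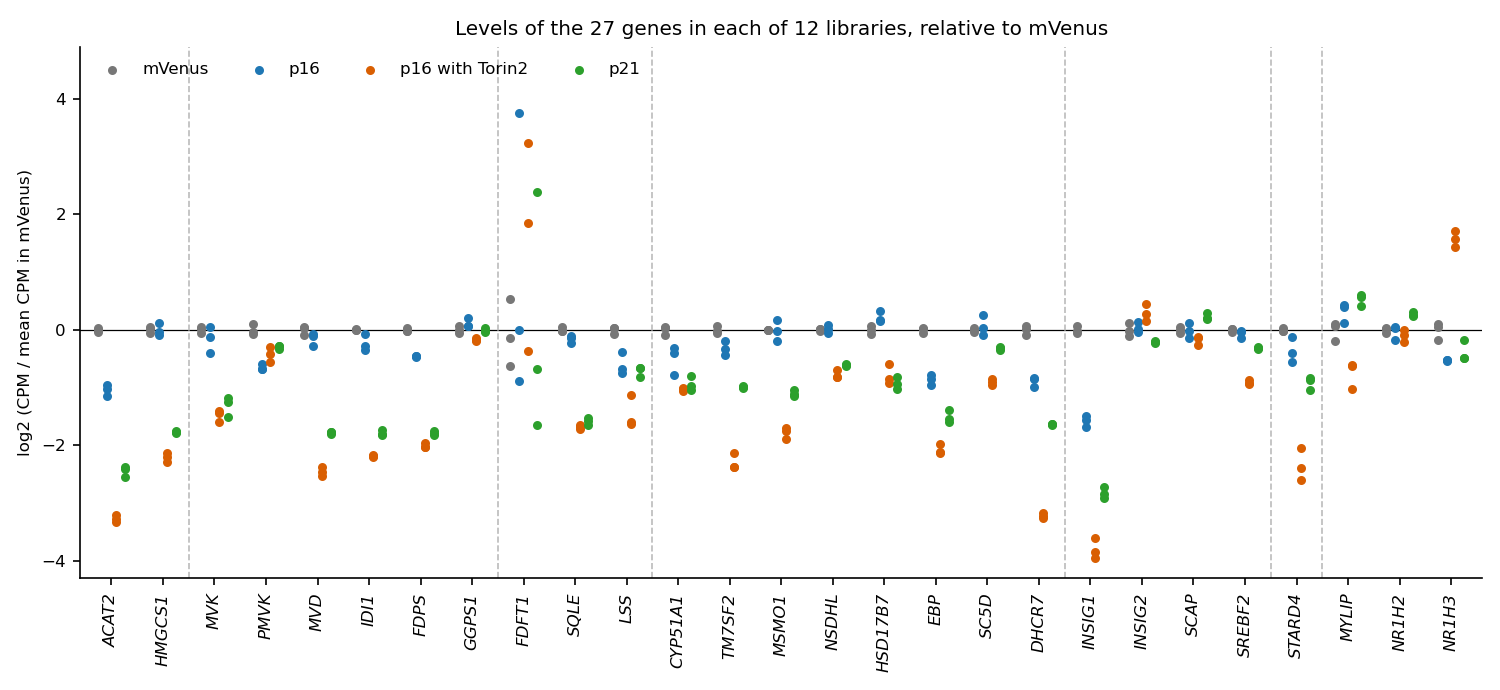
Level of each of the 27 genes in each library, as log2 of its CPM over the mean CPM in mVenus, with genes in pathway order and dashed lines between roles. Torin2 and p21 points of HMGCS1, MVD, IDI1, FDPS and SQLE lie between -1 and -3, p16 points lie near 0 for HMGCS1, MVD and MSMO1, and FDFT1 scatters within its groups.

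**Figure D3:**
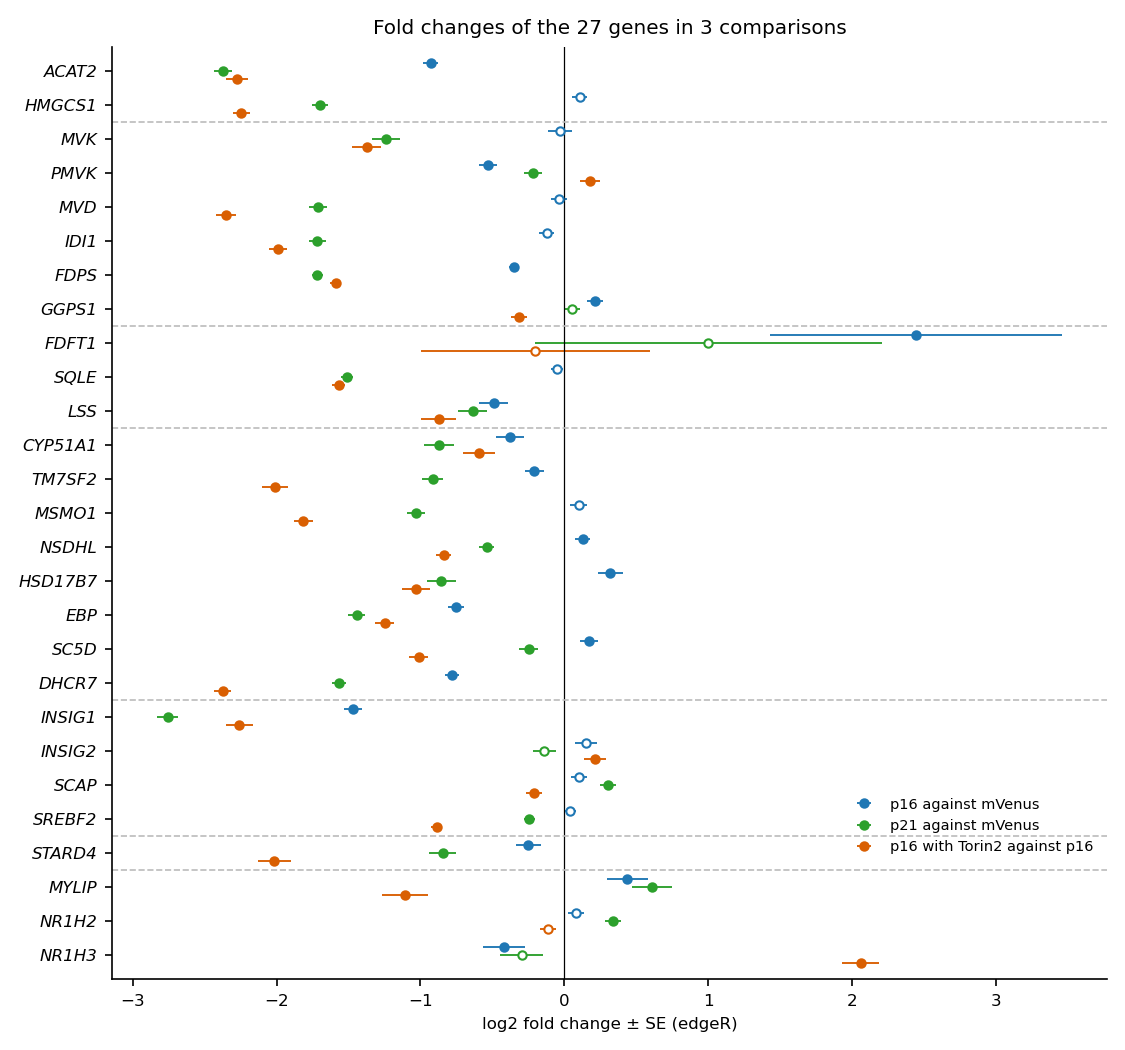
Log2 fold change ± SE (edgeR) of the 27 genes in 3 comparisons, with filled points at an adjusted p under 0.05 and open points otherwise. The p16 points lie on both sides of 0, with INSIG1 at -1.47, ACAT2 at -0.93, DHCR7 at -0.78 and EBP at -0.75, while most p21 and Torin2 points lie to the left, and NR1H3 under Torin2 at 2.06 and the poorly counted FDFT1 in p16 at 2.44 lie far to the right.

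At the entry to the pathway, ACAT2 fell in p16 and HMGCS1 did not pass the test. HMGCS1, the synthase that makes HMG-CoA, stood at 109.9, 107 and 102 CPM in mVenus, 103, 115 and 100.4 in p16, 23.1, 24.4 and 21.8 in p16 with Torin2 and 31.6, 30.9 and 31.3 in p21. The p16 libraries overlapped those of mVenus, and the p21 and Torin2 libraries lay far below both. It fell in p21 (log2 fold change -1.70 ± 0.06 at adjusted p = 9.5e-16) and under Torin2 (log2 fold change -2.24 ± 0.06 at adjusted p = 4.16e-17), and was 0.11 ± 0.05 in p16 (adjusted p = 0.0695, 95% interval -0.01 to 0.22). That last value passed the threshold without p16 replicate 1 or 3 (adjusted p = 0.0475 and 0.0141) and with DESeq2 size factors (0.0369). ACAT2, the cytosolic thiolase that joins acetyl-CoA units, measured 77.6, 75.6 and 73.1 CPM in mVenus, 37.1, 38.9 and 34.3 in p16, 8.15, 7.76 and 7.55 in p16 with Torin2 and 14.1, 12.9 and 14.6 in p21. Its groups did not overlap, mVenus being highest, then p16, p21 and Torin2. The gene fell in p16 (log2 fold change -0.93 ± 0.05 at adjusted p = 4.01e-12), in p21 (-2.37) and under Torin2 over p16 (-2.27). Of its exonic bases 52.3% are shared with SOD2-OT1, and as counting took no strand, its values are uncertain.

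From mevalonate to farnesyl diphosphate, 4 of 6 genes moved alike in p21 and under Torin2. MVK, mevalonate kinase, stood at 32.04, 32.6 and 30.4 CPM in mVenus, 32.9, 29.1 and 24.1 in p16, 11.7, 10.5 and 12.03 in p16 with Torin2 and 13.99, 13.3 and 11.2 in p21. MVD, the decarboxylase after the kinases, had 82.9, 82.3 and 74.95 CPM in mVenus, 76.4, 74.3 and 66.2 in p16, 14.5, 13.9 and 15.3 in p16 with Torin2 and 23.4, 22.8 and 23.6 in p21. In both, p16 and mVenus libraries overlapped and the other groups lay well below. MVK had a log2 fold change of -0.03 ± 0.09 in p16 (95% interval -0.23 to 0.17) and fell in p21 (-1.24) and under Torin2 (-1.37). MVD had -0.04 ± 0.05 in p16 (interval -0.16 to 0.09), -1.71 ± 0.06 in p21 and -2.35 ± 0.07 under Torin2 (adjusted p = 1.68e-16). Both p16 values turned positive without p16 replicate 3 (0.08 and 0.02), still short of the threshold. IDI1, the isomerase of the isoprenoid unit, was measured at 135, 134 and 135 CPM in mVenus, 106, 111 and 128 in p16, 29.2, 30 and 29.7 in p16 with Torin2 and 40.5, 38.5 and 38.1 in p21. Its p16 libraries lay below mVenus without overlap, at an adjusted p of 0.0506 that became 0.000112 without p16 replicate 3. It fell in p21 (log2 fold change -1.72 ± 0.06 at adjusted p = 1.42e-15) and under Torin2 (-1.99). FDPS, which makes farnesyl diphosphate, read 315, 303 and 302 CPM in mVenus, 224, 224 and 222 in p16, 79.2, 74.9 and 75.2 in p16 with Torin2 and 86.8, 88.8 and 90.7 in p21. Its replicates were close and its groups apart. It fell in p16 (log2 fold change -0.35 ± 0.03 at adjusted p = 2.16e-08), in p21 (-1.72) and under Torin2 over p16 (-1.59).

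The remaining pair of this stage differed. PMVK, phosphomevalonate kinase, ranged from 43.02 to 48.8 CPM in mVenus, 28.4 to 30.2 in p16, 30.97 to 36.8 under Torin2 and 35.9 to 37.6 in p21. It was lowest in p16, with log2 fold changes of -0.53 ± 0.06 in p16, -0.22 ± 0.06 in p21 and 0.31 ± 0.07 in p21 over p16, and it was the single enzyme higher under Torin2 than in p16 (log2 fold change 0.18 ± 0.07 at adjusted p = 0.0273). That Torin2 call was lost without p16 replicate 1 or 2 or Torin2 replicate 3 (adjusted p = 0.0714, 0.0865 and 0.174). GGPS1, which makes the longer geranylgeranyl diphosphate, stayed between 33.6 and 43.9 CPM in the 12 libraries. It rose in p16 (log2 fold change 0.21 ± 0.05 at adjusted p = 0.00162), with libraries that overlapped mVenus in CPM, fell under Torin2 over p16 (-0.32), and was -0.16 in p21 over p16, a call lost without p16 replicate 3 or p21 replicate 2 or 3 (adjusted p = 0.108, 0.0615 and 0.0622). It shares 41.0% of its exonic bases with TBCE and is uncertain.

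In the squalene steps, SQLE carried the clearest change. This epoxidase, a control point of the pathway, stood at 247, 235 and 237 CPM in mVenus, 204, 218 and 224 in p16, 76.7, 74.3 and 72.8 in p16 with Torin2 and 83.7, 80.5 and 76.8 in p21. The p16 libraries lay just below mVenus and did not overlap them, while p21 and Torin2 libraries were near each other. Under TMM scaling the p16 difference was -0.05 ± 0.04 (adjusted p = 0.29, 95% interval -0.14 to 0.04), and SQLE fell in p21 (log2 fold change -1.51 ± 0.04 at adjusted p = 6.58e-17) and under Torin2 (log2 fold change -1.57 ± 0.04 at adjusted p = 7.45e-17). LSS, which closes the ring to lanosterol, had 19.98, 21.3 and 21.4 CPM in mVenus, 12.5, 13.04 and 16.03 in p16, 9.58, 6.796 and 6.896 in p16 with Torin2 and 13.3, 13.3 and 11.9 in p21. Its mVenus libraries were highest, and the p16 and p21 libraries overlapped. LSS fell in p16 (-0.49 ± 0.10), p21 (-0.64 ± 0.10) and under Torin2 (-0.87 ± 0.12), and p21 against p16 did not pass (-0.15 ± 0.11, adjusted p = 0.266). FDFT1, squalene synthase, had 7, 7 and 15 counts in mVenus, 132, 5 and 9 in p16, 85, 33 and 7 under Torin2 and 42, 6 and 3 in p21. Replicate 1 was highest in 3 of the 4 groups and the groups overlapped, while the 3 p16 libraries held 15287580 to 16607565 counts in all. These counts are not read as the level of the gene. Its rise in p16 (log2 fold change 2.44 ± 1.02 at adjusted p = 0.042) rested on p16 replicate 1: without it the value was -0.27 (adjusted p = 0.853). Without mVenus replicate 1, 2 or 3 the adjusted p was 0.125, 0.0890 and 0.0652, and DESeq2 gave 0.144. No direction is drawn from it. In the other comparisons FDFT1 did not pass, and without p16 replicate 1 its Torin2 value went from -0.20 to 2.51 (adjusted p = 0.0247), without p21 replicate 1 its p21 over p16 value went from -1.44 to -3.42 (0.0290), and without Torin2 replicate 3 its value in p16 with Torin2 over mVenus went from 2.24 to 2.74 (0.0213).

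Of the 8 enzymes from lanosterol to cholesterol, 8 fell in p21 and 8 fell under Torin2, where 28.3% and 29.0% of genes tested fell. In p16 3 rose and 4 fell, or 37.5% and 50.0%, where 30.9% and 32.8% of genes tested did. MSMO1, an oxidase that strips methyl groups, had 321, 319 and 319.8 CPM in mVenus, 279.9, 317 and 358 in p16, 98.3, 94.8 and 85.9 in p16 with Torin2 and 155, 144 and 149 in p21. Its p16 libraries spread on both sides of mVenus, and p21 and Torin2 libraries lay apart below. It fell in p21 (log2 fold change -1.03 ± 0.06 at adjusted p = 1.8e-11) and under Torin2 (-1.81), and in p16 its value of 0.10 ± 0.06 did not pass (adjusted p = 0.162, and 0.00340 without p16 replicate 1). NSDHL, the dehydrogenase that acts next, ranged from 52.02 to 53.8 CPM in mVenus, 51.1 to 56.5 in p16, 29.98 to 32.7 under Torin2 and 34.5 to 35.2 in p21. Its p16 value (log2 fold change 0.13 ± 0.05 at adjusted p = 0.0298) was near the shift that the scaling gives to equal CPM, and the call was lost on leaving out any mVenus library or p16 replicate 1 or 2 (adjusted p 0.0503 to 0.140). It fell in p21 (-0.54) and under Torin2 (-0.84). HSD17B7, the reductase of the same step, measured 13.8, 13.1 and 12.5 CPM in mVenus, 16.4, 14.5 and 14.7 in p16, 7.3, 8.72 and 6.96 in p16 with Torin2 and 6.45, 6.82 and 7.41 in p21. The p16 libraries were above mVenus and both other groups below. It rose in p16 (log2 fold change 0.32 ± 0.09 at adjusted p = 0.00352) and fell in p21 (-0.85) and under Torin2 over p16 (-1.03). SC5D, a sterol desaturase, had 67.9, 66.2 and 69.8 CPM in mVenus, 63.8, 69.5 and 80.8 in p16, 37.7, 36.2 and 35.1 in p16 with Torin2 and 54.4, 53.7 and 55.6 in p21. The p16 libraries straddled those of mVenus. Its rise in p16 (log2 fold change 0.17 ± 0.06 at adjusted p = 0.0198) was lost without mVenus replicate 1 or 2 or p16 replicate 3 (adjusted p = 0.0509, 0.0640 and 0.192), and it fell in p21 (-0.25) and under Torin2 (-1.01).

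DHCR7, EBP, TM7SF2 and CYP51A1 fell in each of the 5 comparisons, as did ACAT2, FDPS, INSIG1 and STARD4 of other stages and roles. This pattern was not counted over all genes tested. DHCR7, the reductase of a last step to cholesterol, had 174, 180.5 and 163 CPM in mVenus, 95.98, 97.05 and 86.8 in p16, 18.4, 17.9 and 19.1 in p16 with Torin2 and 54.95, 55.7 and 55.9 in p21. Its 4 groups were apart, the Torin2 group lowest. The fall was -0.78 ± 0.05 in p16, -1.56 ± 0.05 in p21 and -2.37 ± 0.06 under Torin2 (adjusted p = 2.05e-17), the last one the largest fall among the 27 in that comparison. EBP, a sterol isomerase, stood at 86.1, 81.8 and 86.7 CPM in mVenus, 49.6, 46.8 and 43.8 in p16, 19.7, 19.4 and 21.7 in p16 with Torin2 and 32.6, 28.9 and 27.9 in p21. The groups again did not overlap. EBP fell in p16 (log2 fold change -0.75 ± 0.06 at adjusted p = 2.83e-10), p21 (-1.44) and under Torin2 (-1.25). TM7SF2, a sterol reductase, read 30.1, 32.1 and 29.6 CPM in mVenus, 24.2, 26.9 and 22.6 in p16, 5.87, 6.99 and 5.92 in p16 with Torin2 and 15.7, 15.2 and 15.4 in p21. Torin2 libraries were lowest, p21 libraries between, and p16 libraries under mVenus. Its small fall in p16 (log2 fold change -0.21 ± 0.07 at adjusted p = 0.0114) was lost without mVenus replicate 2 or p16 replicate 3 (adjusted p = 0.0505 and 0.0640) and with DESeq2 (0.11), and it fell in p21 (-0.91) and under Torin2 (-2.01). CYP51A1, the demethylase of lanosterol, ranged from 14.8 to 16.3 CPM in mVenus, 9.22 to 12.7 in p16, 7.57 to 7.87 under Torin2 and 7.62 to 9.05 in p21, with falls of -0.38, -0.59 under Torin2 over p16 and -0.87 in p21. It shares 83.2% of its exonic bases with AC000120.2, so these values are uncertain.

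The SREBP switch changed most in its sterol brake. INSIG1, which holds SCAP in the endoplasmic reticulum and is itself a target of SREBP, stood at 70.3, 68.1 and 74.5 CPM in mVenus, 22.2, 23.97 and 25.4 in p16, 4.56, 4.94 and 5.86 in p16 with Torin2 and 10.8, 9.47 and 9.86 in p21. Its groups did not overlap, mVenus being highest and Torin2 lowest. INSIG1 fell in p16 (log2 fold change -1.47 ± 0.06 at adjusted p = 2.68e-14), in p21 (log2 fold change -2.76 ± 0.07 at adjusted p = 1.73e-17) and under Torin2 over p16 (log2 fold change -2.26 ± 0.09 at adjusted p = 3.94e-14), and it was lower in p21 than in p16 (-1.29 ± 0.08). Of the 27 genes it was the one with the largest fall in p16, in p21 and in p16 with Torin2 over mVenus (-3.73). INSIG2, its relative with the same role, ranged from 21.6 to 25.4 CPM in mVenus, 22.7 to 25.7 in p16, 26.03 to 31.7 under Torin2 and 19.9 to 20.5 in p21. It did not pass in p16 (0.15 ± 0.08, adjusted p = 0.101, and 0.0305 without mVenus replicate 3) or in p21 (-0.14 ± 0.08), and it rose under Torin2 over p16 (log2 fold change 0.22 ± 0.08 at adjusted p = 0.0189), a call lost without p16 replicate 2 or Torin2 replicate 1 (adjusted p = 0.0916 and 0.131) and with DESeq2 (0.0883).

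SREBF2 and SCAP changed by less than 2-fold in each comparison. SREBF2, the gene of SREBP2 itself, was at 428, 428 and 411 CPM in mVenus, 416, 414 and 381 in p16, 219.8, 230.2 and 224 in p16 with Torin2 and 344, 335 and 340.0 in p21. The p16 libraries overlapped mVenus, p21 libraries lay below both and Torin2 libraries lowest. SREBF2 fell in p21 (log2 fold change -0.24 ± 0.04 at adjusted p = 1.24e-05) and under Torin2 (log2 fold change -0.89 ± 0.04 at adjusted p = 6.17e-14). In p16 the value was 0.04 ± 0.04 (95% interval -0.04 to 0.13, adjusted p = 0.324, and 0.0419 without p16 replicate 3). The strict sterol element printed above lies in its own promoter. SCAP, the escort, ranged from 118 to 126 CPM in mVenus, 111 to 132 in p16, 102 to 112 under Torin2 and 139.5 to 150.3 in p21. It rose in p21 (log2 fold change 0.30 ± 0.05 at adjusted p = 7.94e-05), fell under Torin2 over p16 (-0.21) with overlapping libraries, and did not pass in p16 (0.10 ± 0.06, adjusted p = 0.12, and 0.00786 without p16 replicate 3).

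STARD4, a soluble carrier that moves sterols between membranes, had 58.5, 56.8 and 56.5 CPM in mVenus, 38.96, 43.1 and 52.3 in p16, 13.8, 10.9 and 9.43 in p16 with Torin2 and 32.3, 27.7 and 31.3 in p21. Its groups did not overlap, and its p16 libraries were spread more widely than those of mVenus. It fell in p16 (log2 fold change -0.25 ± 0.09 at adjusted p = 0.0172), a call lost without mVenus replicate 1 or p16 replicate 1 or 2 (adjusted p = 0.0588, 0.119 and 0.0684) and with DESeq2 (0.0685). STARD4 fell further in p21 (log2 fold change -0.84 ± 0.09 at adjusted p = 1.36e-07) and under Torin2 (log2 fold change -2.01 ± 0.11 at adjusted p = 3.76e-12). MYLIP, the ligase that removes the lipoprotein receptor, was at 3.82, 4.71 and 4.61 CPM in mVenus, 5.901, 5.75 and 4.78 in p16, 2.87, 2.82 and 2.15 in p16 with Torin2 and 6.52, 5.84 and 6.66 in p21. These are low counts, the Torin2 group being lowest and p16 and p21 overlapping each other. MYLIP rose in p16 (log2 fold change 0.44 ± 0.14 at adjusted p = 0.0116), a call lost without mVenus replicate 1 (adjusted p = 0.0684) and with DESeq2 (0.0536), rose in p21 (log2 fold change 0.61 ± 0.14 at adjusted p = 0.00102) and fell under Torin2 over p16 (log2 fold change -1.11 ± 0.16 at adjusted p = 4.35e-06).

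Of the LXR genes, NR1H3 rose under Torin2 and NR1H2 did not pass the test. NR1H3, the gene of LXR alpha, had 4.64, 4.48 and 3.81 CPM in mVenus, 2.95, 3.005 and 3.01 in p16, 12.8, 11.7 and 14.1 in p16 with Torin2 and 3.08, 3.81 and 3.08 in p21. The 3 Torin2 libraries stood above the other 9, and p16 lay below mVenus. NR1H3 was the 1 gene of the 27 that rose 2-fold or more under Torin2, as 4.7% of genes tested did (log2 fold change 2.06 ± 0.13 at adjusted p = 2.27e-11), and it remained above mVenus (1.64). Its fall in p16 (log2 fold change -0.42 ± 0.15 at adjusted p = 0.019) was lost without mVenus replicate 1 (adjusted p = 0.0807) and with DESeq2 (0.113), and its p21 value (-0.30 ± 0.15, adjusted p = 0.0924) passed without p21 replicate 2 (0.0461). NR1H2, the gene of LXR beta, ranged from 79.2 to 84.2 CPM in mVenus, 73.1 to 84.9 in p16, 70.8 to 81.8 under Torin2 and 97.4 to 101 in p21. It rose in p21 (log2 fold change 0.34 ± 0.06 at adjusted p = 3.84e-05) and did not pass in p16 (0.08 ± 0.06, adjusted p 0.0209 without p16 replicate 3) or under Torin2 over p16 (-0.11 ± 0.06, adjusted p 0.00709 without p16 replicate 3 and 0.0325 without Torin2 replicate 3).

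**Figure D4:**
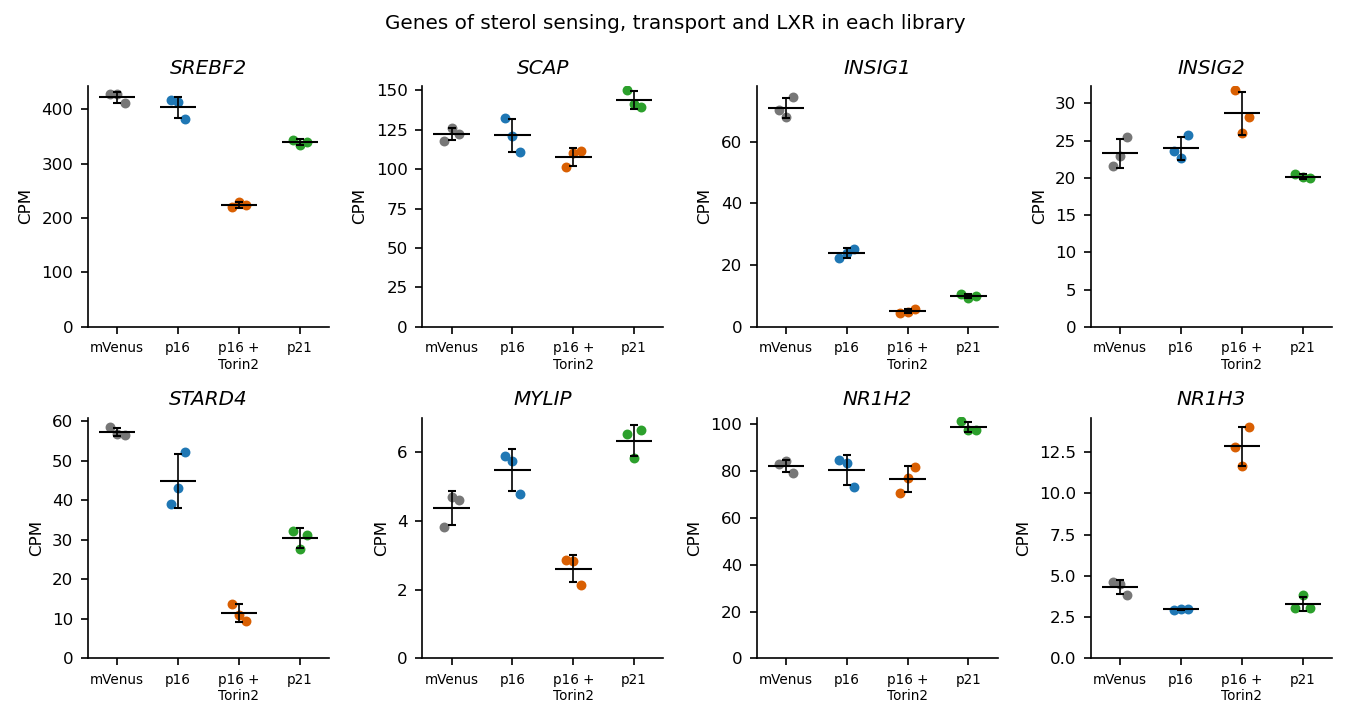
CPM of the 8 genes of sterol sensing, transport and LXR in each library (points), with the mean (bar) and SD (whisker, n = 3) of each group and axes from 0. INSIG1 and STARD4 descend from mVenus over p16 and p21 to Torin2, SREBF2 is near 225 CPM under Torin2 against 335 or more elsewhere, and NR1H3 stands at 11.7 to 14.1 CPM under Torin2 against under 5 elsewhere.

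Per kilobase of exon, which allows levels to be set side by side between genes, the set spanned a wide range in mVenus. MSMO1 (111 ± 0.377 CPM per kb, mean ± SD, n = 3), FDPS (82.5 ± 1.89), SREBF2 (55.9 ± 1.31) and SQLE (55.7 ± 1.504) led, SREBF2 and SQLE within their spread of each other. FDFT1 aside, NR1H3 (0.951 ± 0.0968) was lowest. With Torin2 the leading levels were MSMO1 (32.2 ± 2.23), SREBF2 (29.7 ± 0.694) and PMVK (26.4 ± 2.26), and DHCR7 went from 22.4 ± 1.35 in p16 to 4.45 ± 0.142.

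The neighbouring genes of SREBP processing did not share one direction in p16 or under Torin2, while in p21 more of them rose than fell. In the list of SREBP processing and sterol quality control in the endoplasmic reticulum (12 genes), 5 rose and 6 fell in p16, 8 rose and 2 fell in p21, and 5 rose and 5 fell under Torin2, with medians of -0.11, 0.17 and 0.02. As shares, 41.7% rose and 50.0% fell in p16, 66.7% and 16.7% in p21, and 41.7% and 41.7% under Torin2. Over all genes tested, 30.9% rose and 32.8% fell in p16, 28.2% and 28.3% in p21, and 30.3% and 29.0% under Torin2, the background for this list and the next 4. RNF145, a ligase that acts on SCAP, rose in p16 (0.75 ± 0.04) and p21 (0.47) and fell under Torin2 (-0.46). TRIB1, a pseudokinase of lipid control, rose in p16 (0.56) and under Torin2 over p16 (0.68). FAF2 fell in p16 (-0.15) and under Torin2 over p16 (-0.41) and rose in p21 (0.27). ERLIN1 fell in p16 (-0.28) and rose in p21 (0.20), and its relative ERLIN2 rose in both (0.35 and 0.44). PAQR3, an anchor of SCAP at the Golgi, fell in p16 and p21 (-0.40 and -0.40) and rose under Torin2 (0.60), but shares 45.5% of its exonic bases with BMP2K and is uncertain. UBE2J2 fell in p21 (-0.20).

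In the fatty acid arm, run mainly by SREBP1, more genes rose than fell in p16. Of 18 genes 10 rose and 5 fell in p16 (median 0.40), 7 rose and 9 fell in p21 (-0.13), and 2 rose and 12 fell under Torin2 over p16 (-0.92), beside 17 of 19 cholesterol enzymes that fell under Torin2. As shares, 55.6% rose and 27.8% fell in p16, 38.9% and 50.0% in p21, and 11.1% and 66.7% under Torin2. FASN, fatty acid synthase, stood at 732, 789 and 737 CPM in mVenus, 1702, 1745 and 1557 in p16, 712, 769 and 768 in p16 with Torin2 and 642, 622 and 603 in p21. The p16 libraries were highest and the other groups lay well below them. FASN rose in p16 (log2 fold change 1.26 ± 0.04 at adjusted p = 1.25e-15), fell slightly in p21 (-0.20) and fell under Torin2 over p16 (-1.19). SREBF1, the gene of SREBP1, had 80.9, 91.96 and 87.7 CPM in mVenus, 169, 168 and 148 in p16, 80.5, 88.3 and 90.5 in p16 with Torin2 and 108, 105 and 93.7 in p21. It too was highest in p16, while Torin2 libraries overlapped mVenus. It rose in p16 (log2 fold change 1.01 ± 0.06 at adjusted p = 1.33e-11) and p21 (0.31) and fell under Torin2 over p16 (-0.94). SCD, the stearoyl-CoA desaturase, went from 343 ± 3.56 CPM in mVenus to 631 ± 23 in p16, 96.1 ± 2.63 under Torin2 and 109 ± 5.28 in p21 (mean ± SD, n = 3), with log2 fold changes of 0.99 ± 0.04 in p16, -1.58 ± 0.04 in p21 and -2.76 ± 0.04 under Torin2. ACSS2, which makes acetyl-CoA from acetate, rose in p16 (1.54 ± 0.05) and was lower in p21 than in p16 (-1.64). FADS1, a desaturase of polyunsaturated fatty acids, fell in p16 (-3.27 ± 0.09) and p21 (-2.43 ± 0.08) and did not pass under Torin2 over p16 (0.24 ± 0.12, adjusted p = 0.1). FADS2, another one, fell in p16 (-0.66 ± 0.06), in p21 (-3.06 ± 0.08) and under Torin2 (-3.95 ± 0.11). TMEM97, a sterol-responsive membrane protein, fell in p16 (-1.18) and p21 (-1.61). LPIN1 rose in p21 (1.36) as did ACSL1 (0.82), and GPAM (0.32) and MID1IP1 (0.14) rose under Torin2 over p16.

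No listed gene that uses the isoprenoid products changed 2-fold or more in p16, in p21 or under Torin2. Of 14 genes 2 rose and 5 fell in p16 (median -0.03), 3 rose and 4 fell in p21 (-0.10), and 3 rose and 5 fell under Torin2 (-0.16). The shares that fell, 35.7%, 28.6% and 35.7%, were near the background. Those that rose, 14.3%, 21.4% and 21.4%, were below it. The prenyltransferase subunit RABGGTB (0.76 ± 0.05) rose under Torin2, and COQ2 (-0.63 ± 0.09), of ubiquinone synthesis, and ICMT (-0.47 ± 0.04), which methylates prenylated proteins, fell. PDSS2 rose in p16 and p21 (0.35 and 0.25), RCE1 fell in both (-0.37 and -0.41), and PDSS1 fell in p21 (-0.46). FNTB fell in p16 (-0.51), but shares 42.1% of its exonic bases with CHURC1-FNTB and is uncertain. In p21 against p16, DHDDS was higher (0.14) and ZMPSTE24 lower (-0.29).

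Among 19 tested genes of sterol transport, esterification and storage (of 20), 7 rose and 8 fell in p16 (median -0.08), 10 rose and 7 fell in p21 (0.14) and 4 rose and 11 fell under Torin2 (-0.23). As shares, 36.8% rose and 42.1% fell in p16, 52.6% and 36.8% in p21, and 21.1% and 57.9% under Torin2. LIPA, the lysosomal lipase that frees cholesterol from its esters, rose in p16 (1.22 ± 0.05) and fell under Torin2 over p16 (-0.77 ± 0.04). SCARB1, a lipoprotein receptor, rose in p16 (0.51) and p21 (0.87) and fell under Torin2 (-1.04), and SOAT1, which esterifies cholesterol, fell in p16 (-0.96). The sterol transfer proteins of the GRAMD1 family differed: GRAMD1A fell in p16 (-0.87) and rose under Torin2 (1.06), GRAMD1B fell in p21 (-0.90) and under Torin2 (-1.92), and GRAMD1C was lower in p21 than in p16 (-0.65). OSBPL5 rose in p21 (0.76), OSBPL8 (0.57) and OSBPL1A (0.54) rose under Torin2, LRP8 fell in p21 (-0.95), and NCEH1 was lower in p16 with Torin2 than in mVenus (-1.04).

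Of 12 genes listed as LXR targets or oxysterol enzymes, 8 could be tested. In p16 2 rose and 1 fell (median -0.08), in p21 4 rose and 1 fell (0.36), and under Torin2 over p16 4 rose and 2 fell (0.29). As shares, 25.0% rose and 12.5% fell in p16, 50.0% and 12.5% in p21, and 50.0% and 25.0% under Torin2. ABCG1, a sterol export pump, stood at 1.25, 2.13 and 1.37 CPM in mVenus, 8.49, 5.82 and 5.495 in p16, 10.4, 9.42 and 10.9 in p16 with Torin2 and 7.25, 6.88 and 5.03 in p21. Its mVenus libraries were lowest and did not overlap the rest. ABCG1 rose in p16 (log2 fold change 2.21 ± 0.22 at adjusted p = 2.06e-08), in p21 (2.12) and further under Torin2 (0.59). ABCA1, the other main pump, was low throughout, at 0.382, 0.532 and 0.854 CPM in mVenus, 0.542, 0.3197 and 0.393 in p16, 0.717, 0.577 and 0.586 in p16 with Torin2 and 1.099, 1.04 and 1.51 in p21. It rose in p21 (log2 fold change 1.11 ± 0.32 at adjusted p = 0.00606) and did not pass in p16 (-0.38 ± 0.39) or under Torin2 (0.53 ± 0.39). RXRA, the partner receptor of LXR, rose in p16 (0.92) and p21 (0.68) and fell under Torin2 (-0.48), SMPDL3A rose under Torin2 (0.38), and NCOR1 fell in p16 (-0.23). LPCAT3 fell under Torin2 (-0.51), but shares 65.6% of its exonic bases with EMG1 and is uncertain.

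**Figure D5:**
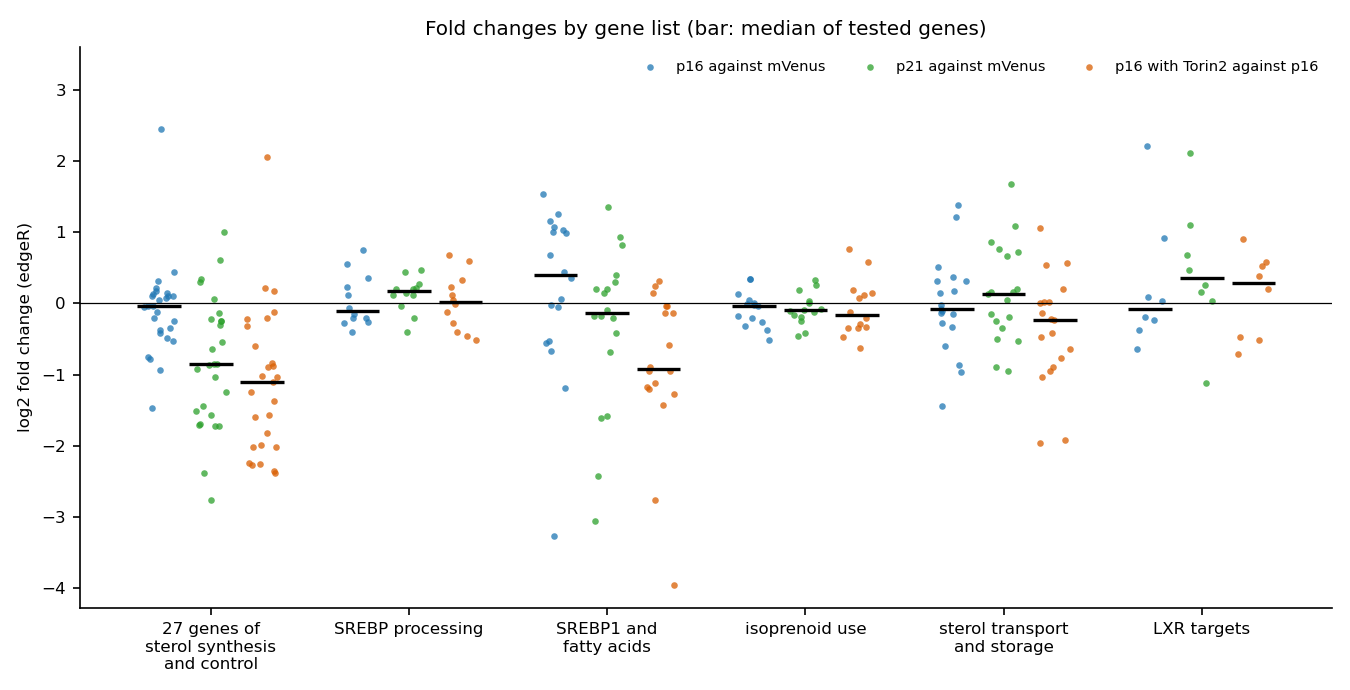
Log2 fold change (edgeR) of each tested gene in the 27-gene set and the 5 related lists, in 3 comparisons, with a bar at the median. The 27 genes have medians of -0.04 in p16, -0.85 in p21 and -1.11 under Torin2, the fatty acid list 0.40, -0.13 and -0.92, and the other 4 lists lie between -0.23 and 0.36.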

How the data were processed

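Poly(A) RNA was made into libraries with a stranded kit from KAPA, as the labels' protocols state. The authors deposited a table of gene counts for each library, made with featureCounts 1.6.3 over GENCODE 29 exons summed by gene name, per the file headers, without strand, multimapping or paired-read options. The submitters' processing notes also name GRCh38.p7, HISAT2, Subread, DESeq2 and FastQC 0.11.3. The 3 comparison tables the authors deposited were not used. CPM is a count divided by its library's total. Of 57133 names, 14504 passed filterByExpr. They entered 1 quasi-likelihood fit in edgeR 4.0.16 (R 4.3.3) over the 12 libraries with TMM scaling, 1 coefficient for each group and 8 residual degrees of freedom. Tests were two-sided with Benjamini-Hochberg adjustment over all 14504 genes at 0.05, and the common biological coefficient of variation was 3.94%. Intervals of 95% use edgeR's SE and those 8 degrees of freedom. In counts simulated for each of the 5 comparisons (14178 to 14218 genes run), 34.5 to 57.1% of genes changed 1.2-fold were called, 78.1 to 85.2% of those changed 1.5-fold and 91.0 to 98.4% of those changed 2-fold. Of unchanged genes, 6 to 15 were called. Each simulation changed 49 to 81 genes per fold size, far fewer than were called in the data. The adjustment was therefore stricter in the simulations, and these shares do not measure the power of the tests reported.

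The members and the related lists were chosen with earlier results of these data known. Each of the 27 members is named. Values per library are given where a change of 2-fold or more was called, and for SREBF2. From each related list, up to 2 rises and 2 falls per comparison were named if the higher group mean reached 5 CPM and libraries did not overlap, with SREBF1, FASN, SCD and ABCA1 always given. Of the genes this rule names, 2 are counted in their lists and not reported here by name. Alternatives were DESeq2 1.42.0, its size factors, upper quartile scaling, leaving out mitochondrial genes or the low-count filter, fitting only the 6 libraries of a comparison, a replicate block, leaving out each library, leaving out members with shared exons, and a shorter promoter window. The limit given beside 0 counts is 3 counts over the group and covers counting error only. Figures were drawn with Python 3.11.15 and matplotlib 3.10.9.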

Additional observations from a re-analysis of the deposited data

How the results depend on the processing

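Of 1752 values of single genes under the alternatives, 1675 kept their direction and side of the threshold, 40 lost the call, 26 gained it and 11 changed sign. Counts of the 27 genes that fell stayed within 1.5 times of those given in every comparison and alternative. The number that rose in p16 was 11 without the low-count filter and 3 with DESeq2, and 2 to 9 with 1 library left out. With Torin2 over p16 it was 1 with DESeq2 and 1 to 3 with 1 library left out. The median of the 27 genes in p16 turned to 0.012 without the filter, and ran from -0.079 to 0.006 with 1 library left out, the highest without p16 replicate 3. Single genes that changed sign were MVK in p16 (0.021 without the filter, -0.14 to 0.081 with 1 library left out, the highest without p16 replicate 3), MVD in p16 (0.012 without the filter, -0.085 to 0.022 likewise), NR1H2 in p16 with Torin2 over mVenus (-0.082 to 0.027, the highest without Torin2 replicate 1) and FDFT1. FDFT1 ran from -0.271 (without p16 replicate 1) to 2.969 in p16, was -0.98 in p21 without p21 replicate 1, and ran from -3.422 to 1.279 (without p16 replicate 1) in p21 over p16. With Torin2 over p16 it ran from -1.253 to 2.514 (without p16 replicate 1), with 0.298 without Torin2 replicate 3, and was 0.053 with the replicate block. FDFT1 had 3 to 132 counts a library. The cause of these changes was not tested.

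The replicate numbers showed no clear pairing of the cultures, though this check cannot establish that there was none. Same-numbered libraries of different groups deviated from their group means with correlations of -0.0822 to 0.0754, 0 of 6 pairs over 0.1 for each number, and 6 of 12 libraries were closest to their own number. With a replicate block the 27 genes held 6 rises and 11 falls in p16, 3 and 20 in p21, 3 and 22 with Torin2, 3 and 20 in p21 over p16, and 3 and 21 in p16 with Torin2 over mVenus, where FDFT1 gained its call (adjusted p = 0.0101).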

Other observations

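Some related genes had too few counts to describe. PLIN2, the coat protein of lipid droplets, had 1 count in 1 mVenus library and 0 in the other 11, and RXRB 2 counts in all. ACACA, the acetyl-CoA carboxylase ahead of FASN, stayed at 0.911 to 6.58 CPM and its libraries overlapped between mVenus and each other group, with a log2 fold change of 1.07 ± 0.37 in p16 (edgeR adjusted p = 0.0163) and -0.04 ± 0.34 with Torin2 over p16. RABGGTA ranged from 0.366 to 3.585 CPM, with 3.585 in mVenus replicate 3 and 3.565 in p21 replicate 2 against less than 2 in the other 10 libraries. For these genes, as for FDFT1, replicates of a group differed more than those of the well-counted enzymes did. Of the exonic bases of FDFT1, 4.2% are shared with another gene.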
